A study of Homo sapiens with 6 samples.

Results

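The genes described here are 36 genes of DNA replication and of the passage from G1 into S phase. They were taken by symbol from a list that names the helicase MCM2 to MCM7 and its loaders, the GINS and CDC45 activators, primase and polymerases, the sliding clamp and its loader, ribonucleotide and thymidylate enzymes, E2F1, the E cyclins, CDC25A and a pair of chromatin factors. All 36 were among the 17513 genes of the deposited tables. Their levels were read as a measure of how much proliferation remained in the cells, and were then compared between the media. No library of proliferating THP1 cells was analysed here, so the levels cannot be called high or low against cycling cells.

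In cycling cells, replication origins are licensed in G1 when the origin recognition complex, CDC6 and CDT1 load the MCM2 to MCM7 helicase onto DNA. At the start of S phase, kinases and factors such as MCM10 recruit CDC45 and GINS, which turn the loaded helicase on, and polymerases, clamp and ligase follow behind it. Many of these genes are transcribed under E2F factors, which the retinoblastoma protein family holds back in resting cells. Macrophages matured from the THP1 line leave the cell cycle to a large degree, while factors such as RPA2, PCNA and LIG1 also serve DNA repair.

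Polyadenylated RNA was sequenced from macrophages derived from THP1, a human monocytic leukaemia line, on a DNBSEQ platform. The tested macrophages spent 48 h in conditioned medium of KYSE150 cells, a human oesophageal squamous carcinoma line, that carried the shRNA shSPP1#2 against SPP1, the gene of osteopontin. The control macrophages spent 48 h in medium of KYSE150 cells that carried the non-targeting shRNA shNC. There were 3 libraries of shSPP1#2 medium and 3 of shNC medium, and 1 shRNA against SPP1. The knockdown was made in the cells that gave the medium, so no library here checks it, and untreated macrophages were not analysed here. Nothing in the labels says that the replicates were separate cultures, so p-values measure the spread between these libraries, which may be technical.

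The libraries held 18113591 to 20626346 estimated counts, and 16069 to 16242 genes had a count above 0. Pairs of replicates differed by more than counting error, with a chi-square of 3.20 to 4.33 per degree of freedom. The sample labels name KYSE150 as the sequenced cells while the series' design names THP1 macrophages, so markers of both were read. Of 20 monocyte and macrophage markers, 17 had at least 1 FPKM (fragments per kilobase of transcript, scaled to library depth) in every library. The libraries' medians were 96.9 to 102.5 FPKM, with means of 245.0 FPKM for CD68 and 184.6 FPKM for CD14. Below 1 FPKM in every library were MRC1, SIGLEC1 and CYBB, with means of 0.018, 0.145 and 0.717 FPKM. Of 20 squamous epithelial markers, 2 reached 1 FPKM in every library, LAMB3 and KRT15, and the libraries' medians were 0.045 to 0.095 FPKM. KRT5 and EPCAM lay between 0 and 0.03 FPKM. The squamous markers summed to 21.87, 21.99 and 22.23 FPKM in shSPP1#2 medium and to 20.65, 21.7 and 22.47 FPKM in shNC medium, so the groups overlapped. Markers of other cell types had median levels of 0.375 FPKM for fibroblasts, 0.195 FPKM for B cells and 2.83 FPKM for the 6 of 11 T and NK cell markers in the tables. The fibroblast list ran up to means of 17.9 FPKM for COL1A1, 8.74 FPKM for FAP, 8.21 FPKM for PDGFRA and 3.67 FPKM for PDGFRB, the T and NK cell list up to GZMB at 8.19 to 12.19 FPKM and the B cell list up to CD79A at 0.627 FPKM.

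The promoters are shown first because many of them hold an E2F-type sequence. The genes were taken by symbol and not by sequence. Many of them are known to be transcribed under E2F factors, so the motif is not independent of their choice. RefSeq promoter windows, from 250 bases before to 50 after the transcription start on GRCh38.p14, were matched by symbol for 31 of the 36 genes. A gene with more than 1 window was counted once, as holding a motif if any of its windows did. An E2F-type motif, any of TTTCCCGC, TTTCGCGC, TTTGCCGC and TTTGGCGC on either strand, was present for 18 of the 31 genes, or 58.1%. The same letters were present in 3.99% of 27305 genes and in 3.31% of 35116 promoters of the table. Stretches from 7 genes follow, each 5′ to 3′ on the gene's strand and ending at the base before the start, except for MCM6, whose stretch covers positions -160 to -71. Capitals mark the E2F-type matches, read on either strand. They are shown for 2 licensing genes, 1 helicase activator, the clamp, thymidylate synthase and 2 regulators. The E2F1 stretch is at chr20:33686386-33686455 on the minus strand and carries 2 matches.
E2F1: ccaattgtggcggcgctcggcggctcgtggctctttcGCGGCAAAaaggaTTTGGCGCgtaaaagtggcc
The MCM6 stretch, at chr2:135876514-135876603 on the minus strand, carries 4 matches in 2 overlapping pairs, each with 1 match on either strand.
MCM6: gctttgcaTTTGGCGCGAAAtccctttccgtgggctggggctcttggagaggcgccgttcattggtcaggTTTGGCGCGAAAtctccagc
CDT1 is at chr16:88803719-88803788 on the plus strand and GINS2 at chr16:85688955-85689024 on the minus strand.
CDT1: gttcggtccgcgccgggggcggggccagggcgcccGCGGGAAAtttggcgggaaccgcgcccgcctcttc
GINS2: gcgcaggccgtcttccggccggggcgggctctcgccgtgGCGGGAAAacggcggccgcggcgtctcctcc
PCNA is at chr20:5126623-5126692 on the minus strand, TYMS at chr18:657583-657652 on the plus strand and CDC25A at chr3:48188418-48188487 on the minus strand.
PCNA: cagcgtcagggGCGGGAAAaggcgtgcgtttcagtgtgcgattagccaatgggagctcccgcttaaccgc
TYMS: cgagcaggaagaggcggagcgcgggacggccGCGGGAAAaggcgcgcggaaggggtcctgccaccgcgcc
CDC25A: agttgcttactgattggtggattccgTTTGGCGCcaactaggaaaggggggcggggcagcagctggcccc
The capitals in CDT1, GINS2, PCNA and TYMS are the same 8 letters, GCGGGAAA, which are TTTCCCGC read on the other strand.

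A further pair of motifs was counted in these genes and in genes of mitosis. The cell cycle homology region, TTTGAA or TTCGAA on either strand, is known from promoters of genes that act in G2 and mitosis. It was present for 2 of the 31 genes with a window, 6.5%, which were MCM6 and RRM1. Mitosis genes had it in 16 of 20, 80.0%, against 19.54% of all genes and 16.35% of all promoters. CCAAT, on either strand, was present for 20 of the 31 genes, 64.5%, and for 17 of 20 mitosis genes, 85.0%. The shares were 39.72% of all genes and 34.61% of all promoters. Among the genes with windows, the E2F-type motif was in 6 of 7 origin licensing genes and in 3 of 20 mitosis genes. A match says that these letters are present and is not a measured binding site.

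**Figure D1:**
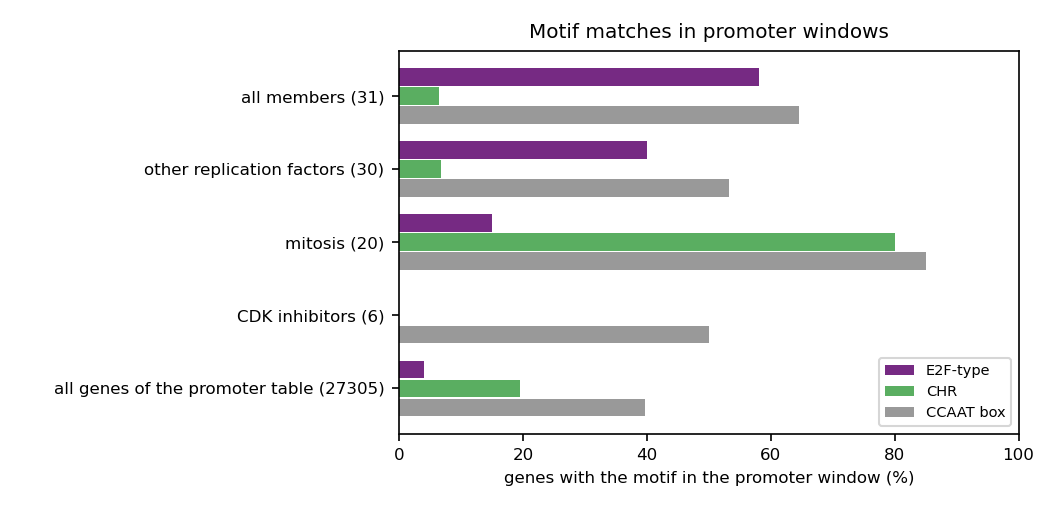
Percent of genes with a motif in any promoter window on the x axis, by gene list on the y axis. The number of genes with a window is in brackets, and bar colours stand for the 3 motifs. The replication genes stand at 58.1% for the E2F-type motif and 6.5% for the cell cycle homology region, and mitosis genes at 15% and 80.0%. Other replication factors stand at 40.0% and 6.7%.

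Transcripts of most of the replication genes were present in the macrophages of both media. At least 1 FPKM in every library was reached by 30 of the 36 genes, at least 5 FPKM by 14 and at least 10 FPKM by 9. Over the table, 61% of the listed genes reached 1 FPKM in every library. Mean levels over the 6 libraries ran from 0.287 FPKM for MCM10 to 34.3 FPKM for RPA2, with a median of 3.65 FPKM against 3.42 FPKM over all listed genes. The levels followed the roles unevenly: the clamp, loader and flap processing genes had a median of 12.6 FPKM, the licensing genes 7.80 FPKM, nucleotide supply 3.88 FPKM, primase and polymerases 3.38 FPKM, G1/S control 1.37 FPKM and helicase activation 0.958 FPKM. The 6 genes that missed 1 FPKM in at least 1 library were CDC45, GINS2 and MCM10 of helicase activation, CDC25A and E2F1 of G1/S control, and the licensing gene ORC1. In bulk RNA, the share of cycling cells and the RNA per cell cannot be told apart.

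**Figure D2:**
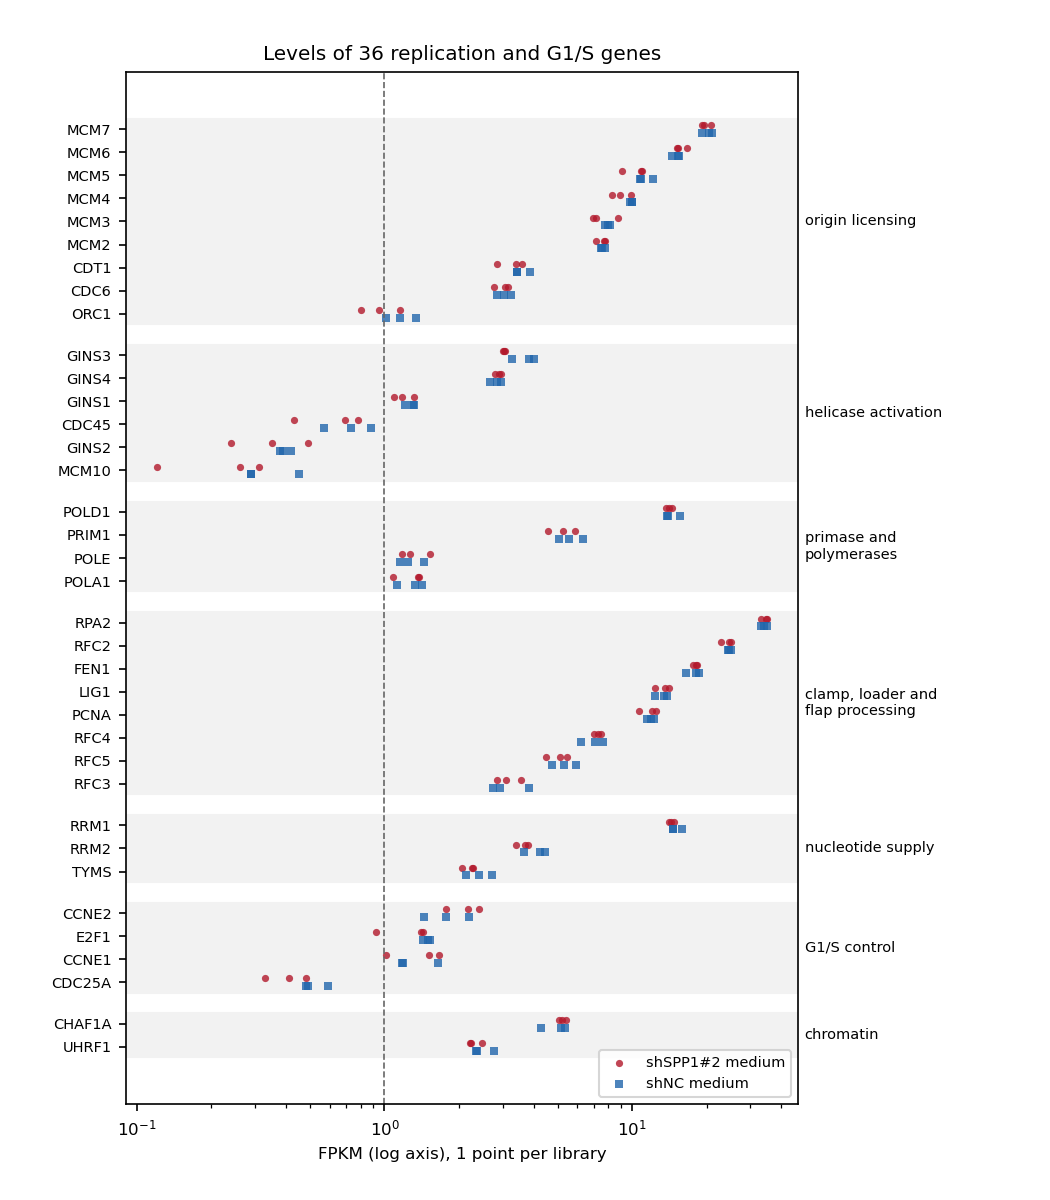
FPKM on a log axis for each of the 36 genes, grouped by role, with 1 point per library; circles and squares separate shSPP1#2 from shNC medium as in the legend, and the dashed line marks 1 FPKM. RPA2 at 34.3 FPKM and MCM10 at 0.287 FPKM, means of 6 libraries, are the ends of the range, and the points of the 2 media lie together for most genes.

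Between the media, no replication gene passed the test. In edgeR's quasi-likelihood fit over all 13555 genes that passed the low-count filter, with Benjamini-Hochberg adjustment, 0 of the 36 genes had an adjusted p below 0.05, where the table as a whole also had 0 genes, 0%. All 36 passed the filter. An unadjusted p below 0.05 was found for 1 of the 36, MCM4, against 928 genes or 6.85% of the table. DESeq2 called 0 of the 36 and 0.305% of the genes to which it gave an adjusted p, which included 4 of the 36, and limma-voom called 0 of the 36 and 0.00738% of the table. The log2 fold change, shSPP1#2 minus shNC, was below 0 for 25 and above 0 for 11 genes, with a median of -0.05, against 50.1% of all tested genes below 0. The 95% interval lay within 0.5 of 0 on the log2 scale for 28 of the 36 and within 1 for 35, all but MCM10. On the scale of log2 CPM, counts scaled to library size, libraries of shSPP1#2 medium all lay below those of shNC medium for 3 genes, MCM4, GINS3 and E2F1, and above for 0, where the background was 5.50% of all tested genes lower and 5.63% higher. Against that background, 3 of 36 is not a result about these genes.

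**Figure D3:**
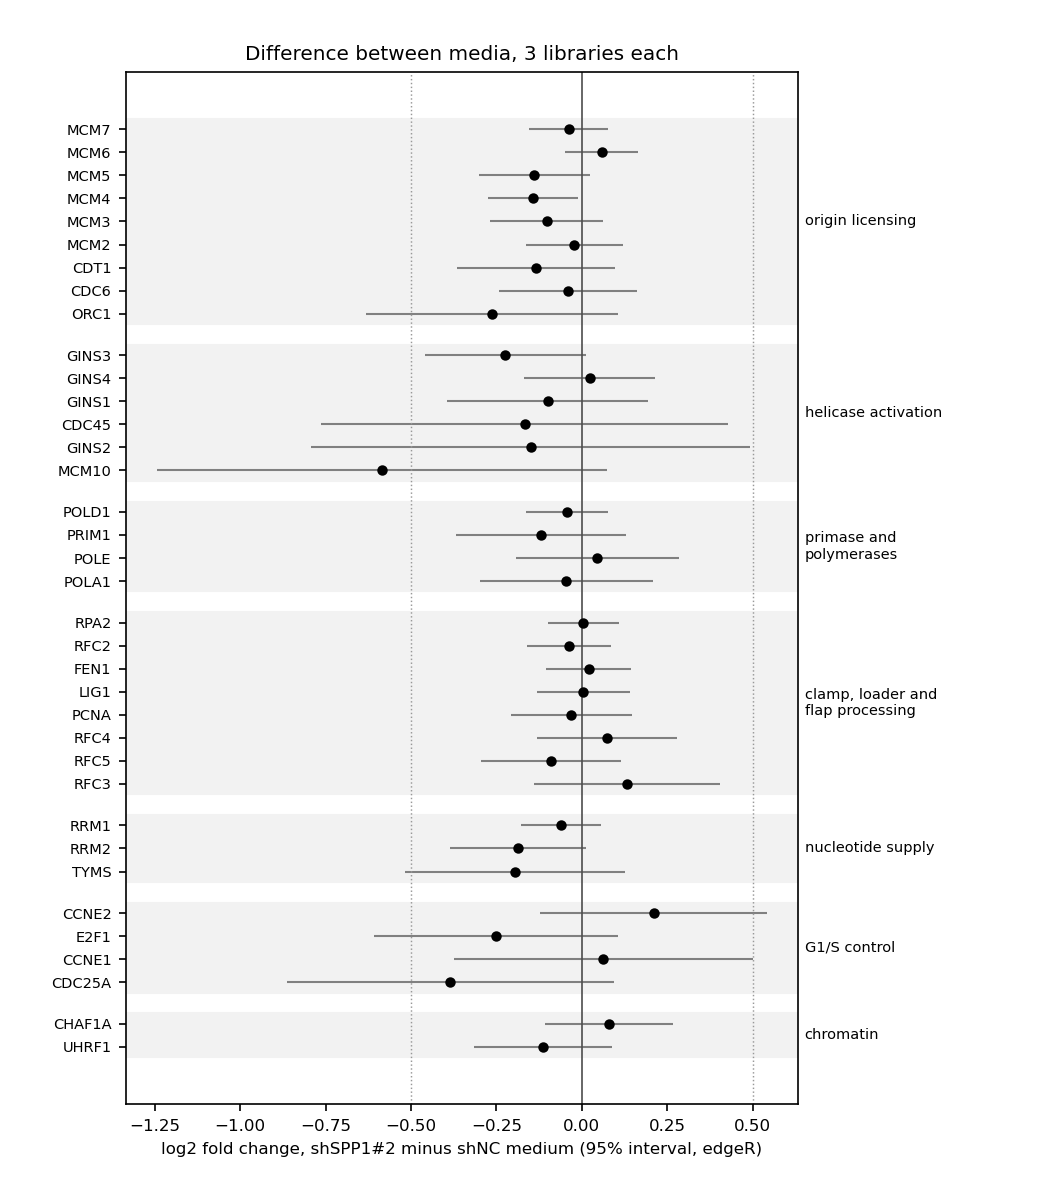
Log2 fold change, shSPP1#2 minus shNC medium, on the x axis for each of the 36 genes, with the 95% interval of edgeR from 3 libraries a medium. The interval of MCM4, -0.27 to -0.01, is the one that leaves out 0, and that of MCM10, -1.25 to 0.07, is the widest.

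Summed over the 36 genes, FPKM came to 254.4, 255.5 and 263.4 in shSPP1#2 medium and to 263.3, 262.1 and 264.5 in shNC medium. Replicates 1 and 2 of shSPP1#2 medium were below all of shNC medium, and replicate 3 lay among them. The means were 257.8 ± 4.90 and 263.3 ± 1.24 FPKM (SD, n = 3 each) in shSPP1#2 and shNC medium. The mean deviation of the genes from their own 6-library average was -0.08, -0.06 and 0.01 log2 CPM in shSPP1#2 medium, against -0.0025, 0.06 and 0.07 log2 CPM in shNC medium. The groups overlapped through the same shSPP1#2 replicate 3. Across the 630 pairs of the 36 genes, the median Pearson r over the 6 libraries was 0.066, with 54.9% of pairs above 0, a description of libraries that the genes share.

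Of the 9 origin licensing genes, 8 had a log2 fold change below 0 and 1 above, with a median of -0.10. MCM4, a helicase subunit at chr8:47960185-47978160 on the plus strand (GRCh38, GENCODE v29), had 8.32, 8.97 and 9.90 FPKM in shSPP1#2 medium, against 10.02, 9.83 and 10.01 FPKM in shNC medium. On the log2 CPM scale of the fit the groups did not overlap, with 5.06, 5.19 and 5.30 in shSPP1#2 medium and 5.33, 5.33 and 5.33 in shNC medium, while in FPKM shSPP1#2 replicate 3 lay above shNC replicate 2. Its log2 fold change was -0.14 with a standard error of 0.06, at an unadjusted p of 0.0339 and an adjusted p of 0.691 in edgeR. The difference shrank to -0.08 without shSPP1#2 replicate 1, the lowest library. MCM5, another subunit of the helicase ring, had 9.08, 10.89 and 10.95 FPKM in shSPP1#2 medium and 10.72, 12.10 and 10.91 FPKM in shNC medium. Only shSPP1#2 replicate 1 stood below all 3 libraries of shNC medium, and edgeR gave a log2 fold change of -0.14 at an adjusted p of 0.782. Without that replicate it was -0.05.

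The other subunits of the ring overlapped between the media. MCM7 had 19.14, 20.83 and 19.45 FPKM in shSPP1#2 medium and 20.37, 19.12 and 21.12 FPKM in shNC medium. MCM6 had 16.67, 15.26 and 15.40 FPKM in shSPP1#2 medium and 15.30, 14.47 and 15.51 FPKM in shNC medium, and it was the licensing gene with a log2 fold change above 0, 0.06. MCM7 and MCM6 were the most abundant licensing transcripts in every library. MCM3 had 7.13, 6.94 and 8.78 FPKM in shSPP1#2 medium and 8.13, 7.80 and 8.0 FPKM in shNC medium, with shSPP1#2 replicate 3 the highest of the 6. MCM2 had 7.80, 7.67 and 7.16 FPKM in shSPP1#2 medium and 7.52, 7.58 and 7.80 FPKM in shNC medium. The protein ring holds 1 copy of each subunit, and protein was not measured here. In RNA, the mean FPKM of MCM7 was 2.64 times that of MCM2, and 2.45 to 2.72 times within single libraries. This ratio averaged 2.63 ± 0.15 in shSPP1#2 medium and 2.65 ± 0.11 in shNC medium (SD, n = 3 each). MCM7 stood above MCM6, and MCM6 above MCM5, in libraries that did not overlap, while the neighbours MCM5, MCM4, MCM3 and MCM2 overlapped.

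The loading genes among the 36 were lower than the ring they load. Among the 3 loading genes, ORC1, the origin recognition subunit that varies most with the cell cycle, had a mean of 1.07 FPKM. CDC6, an ATPase of loading, had 3.02 FPKM, and CDT1, which brings the helicase to the origin, had 3.43 FPKM. Their log2 fold changes were -0.26, -0.04 and -0.13 in that order, and all 3 overlapped between the media. Origin recognition subunits outside the 36 were not all below the ring. ORC3 had a mean of 11.04 FPKM, above MCM5 at 10.78 FPKM. Means of ORC2, ORC4, ORC5 and ORC6 were 4.685, 4.325, 7.272 and 2.073 FPKM. The licensing inhibitor GMNN, geminin, is no member of the 36 and had 2.03, 2.13 and 2.29 FPKM in shSPP1#2 medium, against 1.81, 1.57 and 1.68 FPKM in shNC medium. Its groups did not overlap, and edgeR gave a log2 fold change of 0.32 at an adjusted p of 0.788.

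Helicase activation held the lowest transcripts, and 5 of its 6 genes had a log2 fold change below 0. MCM10, which takes part in starting the loaded helicase, had 0.12, 0.26 and 0.31 FPKM in shSPP1#2 medium, against 0.29, 0.45 and 0.29 FPKM in shNC medium. These levels rested on 11.4, 23.9 and 28.2 estimated counts in shSPP1#2 medium and 26.9, 36.8 and 26.9 in shNC medium. The groups overlapped through shSPP1#2 replicate 3, and replicate 1 was the lowest. Its log2 fold change was -0.59 with a standard error of 0.31 and an edgeR adjusted p of 0.778, and it was -0.27 without shSPP1#2 replicate 1.

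GINS is a complex of 4 subunits that travels with the helicase, and the transcripts of those subunits were far apart in level. GINS3, at chr16:58295080-58406144 on the plus strand, had 3.01, 3.06 and 3.05 FPKM in shSPP1#2 medium, against 3.82, 4.01 and 3.26 FPKM in shNC medium. The groups did not overlap, and the SD over the 3 libraries was 0.0265 FPKM in shSPP1#2 medium and 0.390 FPKM in shNC medium. The log2 fold change was -0.22 with a standard error of 0.11, at an unadjusted p of 0.0609 and an adjusted p of 0.742 in edgeR. Overlapping genes on the other strand share 10.9% of the exonic bases of GINS3 and 23.6% of those of GINS4 in GENCODE v29. Genes on the other strand also share 23.6% of the exonic bases of MCM2 and 10.6% of those of RFC5. RRM2 shares 20.2% with a gene on its own strand, and PRIM1 21.6% with genes on both strands. The sources used here do not say whether the counting used strand. GINS4 had 2.79, 2.91 and 2.95 FPKM in shSPP1#2 medium and 2.66, 2.85 and 2.96 FPKM in shNC medium. GINS2 had 0.35, 0.24 and 0.49 FPKM in shSPP1#2 medium and 0.39, 0.38 and 0.42 FPKM in shNC medium, so that shSPP1#2 medium held both the lowest and the highest library. GINS3, GINS4, GINS1 and GINS2 came in this order in every library without overlap, and GINS3 was 6.22 to 12.8 times GINS2. CDC45, the third part of the active helicase beside MCM and GINS, had a mean of 0.68 FPKM, from 16 to 33 estimated counts a library.

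None of the 4 primase and polymerase genes separated the media, and 3 had a log2 fold change below 0. POLD1, the catalytic subunit of the lagging-strand polymerase delta, had 14.08, 13.72 and 14.46 FPKM in shSPP1#2 medium and 13.98, 15.64 and 13.88 FPKM in shNC medium. Its 95% interval was -0.16 to 0.08 on the log2 scale. PRIM1, the catalytic primase subunit, had 5.90, 4.58 and 5.25 FPKM in shSPP1#2 medium and 5.58, 5.06 and 6.36 FPKM in shNC medium. PRIM1 had the wider interval, -0.37 to 0.13. The catalytic subunits of polymerase alpha and epsilon, POLA1 and POLE, were lower, with means of 1.28 and 1.30 FPKM.

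The clamp, its loader, the single-strand binding protein and the flap enzymes were the most abundant of the roles, and 5 of 8 genes had a log2 fold change above 0, with a median of 0.0045. RPA2, a subunit of the protein that coats single-stranded DNA in replication and repair, had 34.84, 33.17 and 35.24 FPKM in shSPP1#2 medium and 35.01, 34.25 and 33.32 FPKM in shNC medium. Its interval, -0.10 to 0.11 on the log2 scale, was the narrowest of the 36 genes. RFC2, a clamp loader subunit, had 22.80, 25.07 and 24.75 FPKM in shSPP1#2 medium and 24.52, 25.04 and 24.58 FPKM in shNC medium. The other loader subunits were lower. RFC5 had 5.12, 4.49 and 5.46 FPKM in shSPP1#2 medium and 5.94, 4.75 and 5.29 FPKM in shNC medium. RFC3 had 3.11, 2.86 and 3.57 FPKM in shSPP1#2 medium and 3.82, 2.93 and 2.75 FPKM in shNC medium. Neither separated the media, and RFC2, RFC4, RFC5 and RFC3 kept this order in every library without overlap, with RFC2 6.42 to 8.94 times RFC3. The sliding clamp PCNA had a mean of 11.8 FPKM, the flap nuclease FEN1 17.9 FPKM and the ligase LIG1 13.3 FPKM. Pseudogenes of PCNA, RPA2, FEN1, RFC3 and RFC5 are annotated, and the sources used here do not say how the counting treated them.

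All 3 nucleotide supply genes had a log2 fold change below 0. RRM2, the small subunit of ribonucleotide reductase that is restricted to S phase in cycling cells, had 3.41, 3.80 and 3.71 FPKM in shSPP1#2 medium, against 3.66, 4.24 and 4.47 FPKM in shNC medium. shSPP1#2 replicates 2 and 3 lay just above the lowest library of shNC medium, and edgeR gave a log2 fold change of -0.19 with a standard error of 0.10 at an adjusted p of 0.754. TYMS, thymidylate synthase, had 2.06, 2.27 and 2.26 FPKM in shSPP1#2 medium and 2.71, 2.40 and 2.14 FPKM in shNC medium, with overlap through shNC replicate 3. RRM1, the large subunit of the reductase, had 14.32, 14.10 and 14.82 FPKM in shSPP1#2 medium and 14.64, 15.86 and 14.61 FPKM in shNC medium. As a mean deviation, the 3 genes together were at -0.13, -0.0078 and -0.08 log2 CPM in shSPP1#2 medium and at 0.05, 0.12 and 0.05 log2 CPM in shNC medium, and these did not overlap. None of the 3 genes separated the media alone, and the joint level was not tested. Among all single tested genes, 5.50% lay lower in shSPP1#2 medium without overlap and 5.63% higher. RRM1 was 3.27 to 4.2 times RRM2. Exons of TYMS share 46.6% of their bases with ENOSF1 and TYMSOS, and RRM2 and TYMS have annotated pseudogenes. The other 10 nucleotide supply genes were split, 5 above and 5 below 0, with a median of 0.0033. CMPK1 and NME1, kinases of nucleotide precursors, were the highest of them, with means of 101.4 and 32.8 FPKM and log2 fold changes of 0.03 and -0.13. RRM2B, the reductase subunit that p53 controls and that serves resting cells, had 14.41, 13.18 and 14.61 FPKM in shSPP1#2 medium and 13.79, 12.52 and 13.18 FPKM in shNC medium, above RRM2 in each library.

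The 4 genes of G1/S control were low, and 2 had a log2 fold change above 0 and 2 below. E2F1, a transcription factor at chr20:33675683-33686404 on the minus strand, had 0.92, 1.40 and 1.43 FPKM in shSPP1#2 medium, against 1.5, 1.53 and 1.43 FPKM in shNC medium. It did not overlap on the log2 CPM scale, at 1.33, 1.95 and 1.94 in shSPP1#2 medium and 2.01, 2.06 and 1.96 in shNC medium, and replicate 3 of both media tied in FPKM. The log2 fold change was -0.25 with a standard error of 0.17 and an edgeR adjusted p of 0.845. Without shSPP1#2 replicate 1, it was -0.07. CDC25A, a phosphatase that activates CDK2, had 0.33, 0.48 and 0.41 FPKM in shSPP1#2 medium and 0.48, 0.49 and 0.59 FPKM in shNC medium, with an interval of -0.86 to 0.09 on the log2 scale. CCNE2, a cyclin that drives CDK2 into S phase, had 2.41, 1.77 and 2.18 FPKM in shSPP1#2 medium and 1.77, 2.2 and 1.44 FPKM in shNC medium, and its log2 fold change of 0.21 was the highest of the 36 genes. Its exons share 37.1% of their bases with INTS8 and AC087752.4. The partner cyclin CCNE1 had a mean of 1.37 FPKM, and the order of CCNE2 and CCNE1 was not fixed across libraries.

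Chromatin factors that act behind the fork overlapped between the media. CHAF1A, a histone chaperone subunit, had 5.06, 5.40 and 5.20 FPKM in shSPP1#2 medium and 4.28, 5.17 and 5.34 FPKM in shNC medium. UHRF1, which brings the maintenance methyltransferase to newly made DNA, had 2.24, 2.21 and 2.48 FPKM in shSPP1#2 medium and 2.36, 2.34 and 2.76 FPKM in shNC medium.

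**Figure D4:**
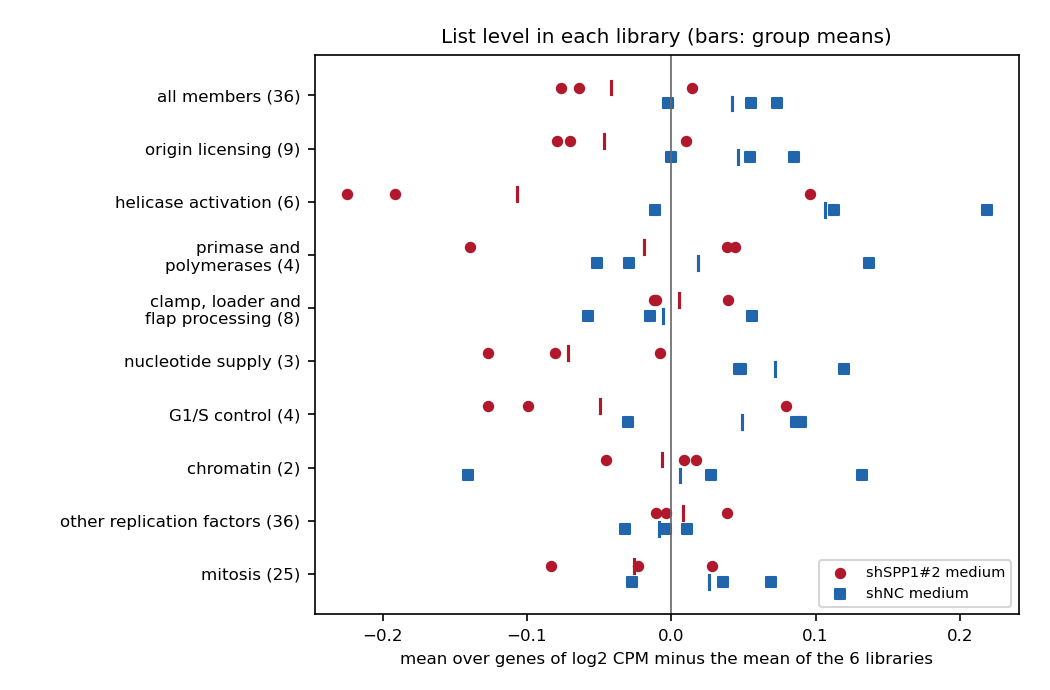
Mean deviation of each list's genes from their 6-library average, in log2 CPM on the x axis, 1 point per library; vertical bars are the means of 3 libraries and the tested genes are counted in brackets. The 36 genes lay at -0.08, -0.06 and 0.01 in shSPP1#2 medium and at -0.0025, 0.06 and 0.07 in shNC medium. Of the 7 roles, nucleotide supply, with 3 genes, is the one whose groups do not overlap. That level was not tested, and 5.50% of all single tested genes lay lower without overlap and 5.63% higher.

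Other genes of the pathway were read as a frame for these levels, and edgeR called 0 of them in either direction in each of 6 lists. The 36 other replication factors had a median log2 fold change of 0.0075, with 19 above and 17 below 0, and a median level of 4.33 FPKM. Libraries of the media did not overlap for 3 of them, GMNN, TOP1 and the maintenance methyltransferase DNMT1, each higher in shSPP1#2 medium, beside 5.63% of all tested genes. TIPIN, a fork protection factor, had 4.45, 4.32 and 5.47 FPKM in shSPP1#2 medium and 4.31, 3.90 and 3.51 FPKM in shNC medium, just apart in FPKM and overlapping in log2 CPM. TOP1, the topoisomerase that relaxes DNA ahead of forks and of transcription, had 65.33, 63.74 and 65.06 FPKM in shSPP1#2 medium and 62.16, 61.06 and 62.76 FPKM in shNC medium. POLD4, the small subunit of polymerase delta, had a mean of 44.8 FPKM. The log2 fold changes of TIPIN and TOP1, 0.22 and 0.06, had edgeR adjusted p-values of 0.748 and 0.867.

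Regulators upstream of the E cyclins included some of the most abundant transcripts of these lists. CDKN1A, the CDK inhibitor p21, had 655.26, 700.33 and 642.91 FPKM in shSPP1#2 medium and 670.55, 679.69 and 663.37 FPKM in shNC medium, at the percentile 99.5 of all genes. The inhibitor CDKN2C had 23.13, 22.26 and 21.52 FPKM in shSPP1#2 medium and 25.69, 21.29 and 21.96 FPKM in shNC medium, while CDKN2A and CDKN2B lay between 0 and 0.18 FPKM and were not tested. CCND1, cyclin D1, had 212.25, 209.51 and 224.36 FPKM in shSPP1#2 medium and 213.05, 217.94 and 233.03 FPKM in shNC medium. None of these separated the media. CDKN1B, the inhibitor p27, had a mean of 12.1 FPKM, CCND3 58.5 FPKM and CDK6, a kinase of the D cyclins, 8.04 FPKM. CCND2, a D cyclin at 0.86, 0.65 and 0.98 FPKM in shSPP1#2 medium and 0.73, 0.54 and 0.57 FPKM in shNC medium, had the smallest unadjusted p of its list, 0.0151, with an edgeR adjusted p of 0.629. RB1, the retinoblastoma protein that restrains E2F factors, had 30.11, 26.50 and 27.35 FPKM in shSPP1#2 medium, against 26.57, 25.68 and 26.16 FPKM in shNC medium. The groups did not overlap in log2 CPM, while in FPKM shSPP1#2 replicate 2 lay just under shNC replicate 1, and edgeR gave a log2 fold change of 0.10 at an adjusted p of 0.732. Of the 15 tested E2F and pocket protein genes, 2 lay higher in shSPP1#2 medium without overlap, RB1 and RBL2. Another 2 lay lower, LIN9 and MYBL2, where the background was 5.63% of all tested genes higher and 5.50% lower. E2F4, the E2F member mostly found with pocket proteins in resting cells, had a mean of 37.7 FPKM and LIN54, a subunit of the complex that joins them, 5.01 FPKM, whereas E2F8 lay at 0.04 to 0.06 FPKM.

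Mitosis genes stood below the replication genes in level. Their median was 1.58 FPKM, at the median percentile 41.4 of all genes against 50.9 for the 36 replication genes, and 14 of 25 reached 1 FPKM in every library. AURKA and CDC20, a mitotic kinase and an activator of the anaphase complex, were the highest, with means of 14.6 and 9.42 FPKM. NUSAP1, a spindle protein, had 2.37, 1.85 and 2.05 FPKM in shSPP1#2 medium, against 2.67, 2.69 and 2.72 FPKM in shNC medium. The groups did not overlap, and edgeR gave a log2 fold change of -0.37 at an adjusted p of 0.588. UBE2C, the ubiquitin-conjugating enzyme of the anaphase complex, had 4.51, 4.66 and 4.52 FPKM in shSPP1#2 medium, against 3.53, 4.03 and 3.95 FPKM in shNC medium, without overlap and with a log2 fold change of 0.26. Over the 25 mitosis genes, 17 had a log2 fold change below 0 and 8 above, with a median of -0.06. The proliferation markers MKI67 and TOP2A, chosen after their values were seen, had 0.87, 0.87 and 0.97 FPKM and 2.19, 1.99 and 2.19 FPKM in shSPP1#2 medium, against 0.80, 1.03 and 1.19 FPKM and 2.14, 2.34 and 2.33 FPKM in shNC medium.

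**Figure D5:**
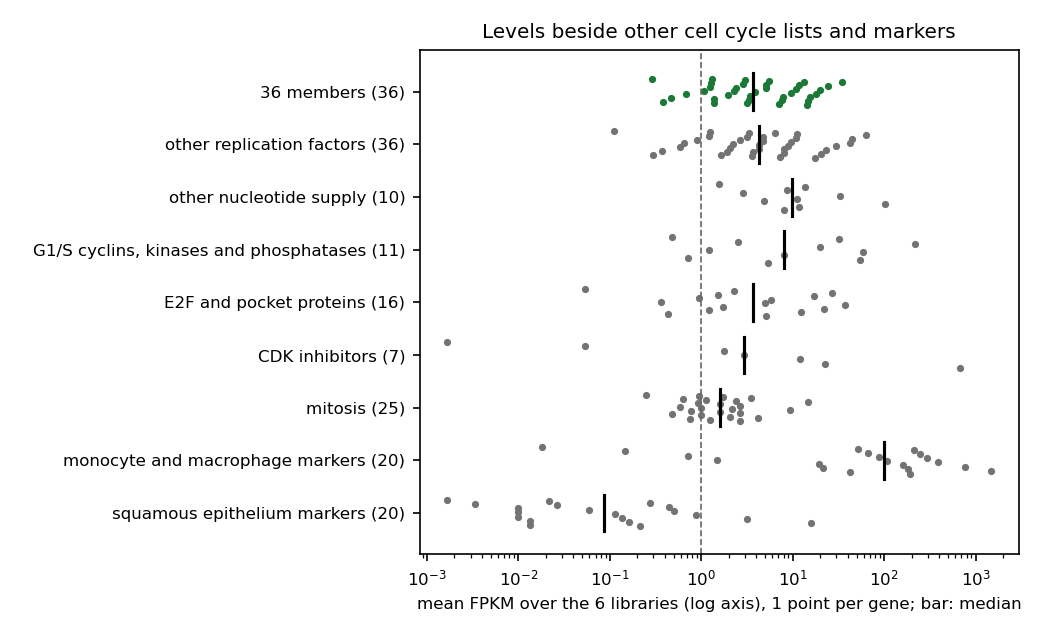
Mean FPKM over the 6 libraries on a log axis, 1 point per gene, for the replication genes, 6 other cell cycle lists and marker lists; bars are medians and the dashed line marks 1 FPKM. The replication genes have a median of 3.65 FPKM and mitosis genes 1.58 FPKM, and monocyte and macrophage markers lie far above the squamous epithelial ones.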

How the data were processed

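Per the submitters' processing notes, HISAT2 2.0.4, Bowtie2 2.2.5 and RSEM were used with GRCh38.p13; the role of each, the annotation release and strand use were not given in the sources used here. Deposited by the authors were estimated counts per gene, 78.9 to 80.4% of whose values per library were not whole (tolerance 0.005), and FPKM, which the authors scaled by length and depth. A total of 20 stray lines of the FPKM table were dropped. The deposited estimated counts were rounded and fitted over the whole table with edgeR 4.0.16 (R 4.3.3): filterByExpr kept 13555 genes, then TMM scaling, a quasi-likelihood test of shSPP1#2 minus shNC medium over the 6 libraries, and Benjamini-Hochberg adjustment at 0.05. The script was tested on simulated data. DESeq2 1.42.0, limma 3.58.1 and other filters, scalings and pseudocounts were tried as alternatives. FPKM served for levels. Groups that do not overlap were judged on log2 CPM (prior count 2), unless FPKM is named.

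The members and lists were chosen with earlier results of these data known. Values in every library are given for, in each role, the 2 genes of highest mean FPKM and the 2 of smallest p, for MCM2 to MCM7, for the 2 lowest genes and for genes whose groups do not overlap; of each other list, the 2 of smallest p and the 2 of highest FPKM are named, and others named beside them were chosen after their values were seen. Promoters came from RefSeq (GRCh38.p14), positions and overlaps from GENCODE v29.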

Additional observations from a re-analysis of the deposited data

How the results depend on the processing

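Across the alternatives, the count of the 36 genes called stayed at 0, including each of the 6 fits without 1 library. Genes called across the table numbered 18 with no low-count filter, 59 with the replicate block, 3 with robust dispersion, 13 with DESeq2, 1 with limma-voom, 1 with limma on log2(FPKM + 0.1) and 1 to 10 when each library was left out in turn, the lowest without shSPP1#2 replicate 1 and the highest without shSPP1#2 replicate 2. The labels do not say that the replicate numbers pair the libraries, and the main fit did not pair them. Same-numbered libraries correlated at 0.194, 0.286 and 0.089. Of the pairs with different numbers, shSPP1#2 replicate 3 and shNC replicate 1 correlated at 0.117, and the others at -0.26 to -0.013. Whether the numbers pair the libraries was not tested. The replicate block put MCM4, MCM5 and RRM2 below an unadjusted p of 0.05, with a smallest adjusted p of 0.333 in edgeR. Genes among the 36 whose groups did not overlap numbered 1, GINS3, in each of the 3 FPKM fits, and 3 to 9 with a library left out, where the share of all genes without overlap was also higher, 18.2 to 25%. The median log2 fold change of the 36 ranged from -0.07 without shSPP1#2 replicate 3 to -0.04 without shNC replicate 3. A level threshold of 5 FPKM left 14 genes. The shorter E2F core, GGCGGG or GCGGGA, was present for 31 of 31 genes with a window but also for 52.25% of all genes. Of 356 log2 fold changes under the other settings that alter the estimates, 0 changed sign; with a library left out, 24 of 216 did, in 15 genes whose log2 fold change was at most 0.17 in size. Their ranges were -0.0813 to 0.0026 for CDC6, -0.0455 to 0.0239 for MCM2, -0.3493 to 0.0396 for CDC45, -0.4306 to 0.0791 for GINS2, -0.0277 to 0.0608 for GINS4, -0.1225 to 0.0406 for POLA1, -0.0749 to 0.0181 for POLD1, -0.0619 to 0.1706 for POLE, -0.0646 to 0.0358 for PCNA, -0.067 to 0.0024 for RFC2, -0.0162 to 0.019 for RPA2, -0.022 to 0.0552 for FEN1, -0.0462 to 0.069 for LIG1, -0.0703 to 0.2388 for CCNE1 and -0.0198 to 0.1433 for CHAF1A. The cause was not tested. Depth limits CDC45, GINS2, MCM10 and CDC25A most: their standard errors were 0.28, 0.31, 0.31 and 0.23 on the log2 scale, against a median of 0.10 over the 36.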

Other observations

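The replication genes with the E2F-type motif had a median log2 fold change of -0.07, 4 above and 14 below 0, and those with a promoter window but without the motif had -0.06, 4 above and 9 below. Their median levels were 3.10 and 5.18 FPKM. The genes with the motif included E2F1, CDC25A, CDC6, CDT1 and the GINS genes GINS1, GINS2 and GINS3, and those without it included FEN1, RFC2, POLD1 and RRM1. By CCAAT, the 20 genes with the motif had a median log2 fold change of -0.10, 3 above and 17 below 0, and the 11 without it had -0.02, 5 above and 6 below. Median levels were 2.71 FPKM with CCAAT and 7.12 FPKM without it, so the motif and the level cannot be told apart here. The difference between the genes with and without a motif was not tested.

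Among 10607 other genes with a mean of at least 2 log2 CPM, the 5 whose levels over the 6 libraries were most like the mean level of the 36 genes were RRP7A, FRMD4A, TUBG2, ZNF865 and MAP3K8, with Pearson r of 0.992, 0.992, 0.991, 0.990 and 0.988. With 6 libraries and this many candidates, such values are a description of these libraries. edgeR's adjusted p for them ran from 0.673 to 0.916.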
